A study of Homo sapiens with 4 samples.

Results

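The genes examined here were 10 regulators of the BCL2 family, namely the anti-apoptotic BCL2, BCL2L1 and MCL1, the pro-apoptotic effectors BAX and BAK1, and the pro-apoptotic BH3-only genes BID, BBC3, PMAIP1, BCL2L11 and BIK. They were chosen by gene symbol, and all rows of the deposited transcript table that carry 1 of these symbols were taken. Of the 10 genes, 8 had rows, with 24 transcripts among the 43596 transcripts and 15113 genes of the table. BID and BCL2L11 had no row and are not analysed here. Cultured MDA-MB-231 cells, a human line of triple-negative breast cancer, received for 24 h either the solvent DMSO or 10 µM KH-3, a small molecule described by the study as an inhibitor of the RNA-binding protein HuR. There were 2 RNA-seq libraries per condition. The value used is the mean normalized read count of each transcript, which the authors averaged over libraries. Cells given KH-3 at 5 µM also belonged to the study and are not analysed here. Which libraries enter that mean, those at 5 µM included, is not given in the sources used here, and the mean has no error and no separate value for DMSO or KH-3. The fold changes and p-values of KH-3 against DMSO in the same table are the authors' own comparison and were not used, so the values below describe how much of each family member was found in these cells and say nothing on the response to KH-3.

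BCL2 family proteins decide whether the outer mitochondrial membrane is opened. BAX and BAK1 form the pores that release cytochrome c, the anti-apoptotic proteins hold them back, and BH3-only proteins respond to stress by binding the anti-apoptotic proteins or by activating the effectors directly. Several of these genes make products of opposite effect by alternative splicing, BCL2L1 and MCL1 being the classical cases.

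The splice choice of BCL2L1 carries one of the main results, so its 5′ splice sites are shown first, from the hg38 genome on the minus strand. Each line gives the last 20 exon bases followed by 10 intron bases, with the GT of the splice site in capitals. The site of the long product, Bcl-xL, lies at chr20:31721645-31721674, and that of the short product, Bcl-xS, at chr20:31721834-31721863.
Bcl-xL site: tccaggagaacggcggctggGTaagaacca
Bcl-xS site: catatcagagctttgaacagGTagtgaatg

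Use of the second site removes 1 block of 189 coding bases, chr20:31721655-31721843, which shortens the coding sequence from 233 to 170 codons. Bcl-xL protects cells from apoptosis, whereas Bcl-xS is known to counteract it.

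Levels were compared between genes as mean normalized reads per kilobase of transcript, summed over the listed transcripts of a gene. BCL2L1 had the highest level of the 8 listed members with 1819 reads per kb, followed by MCL1 with 1719. The PMAIP1 level was 461, that of BAX 349.7 and that of BAK1 331. BCL2 had only 39.5 reads per kb, BBC3 24.3 and BIK 8.05. The order thus had BCL2L1 and MCL1 at the top, PMAIP1 and both effectors in the middle, and BCL2, BBC3 and BIK at the bottom. Because no spread between libraries is known, no neighbours in this order can be separated by a test. The closest were BCL2L1 and MCL1, which differed by 1.06 times, and BAX and BAK1, which also differed by 1.06 times. The widest step, 8.38 times, lay between BAK1 and BCL2.

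**Figure D1:**
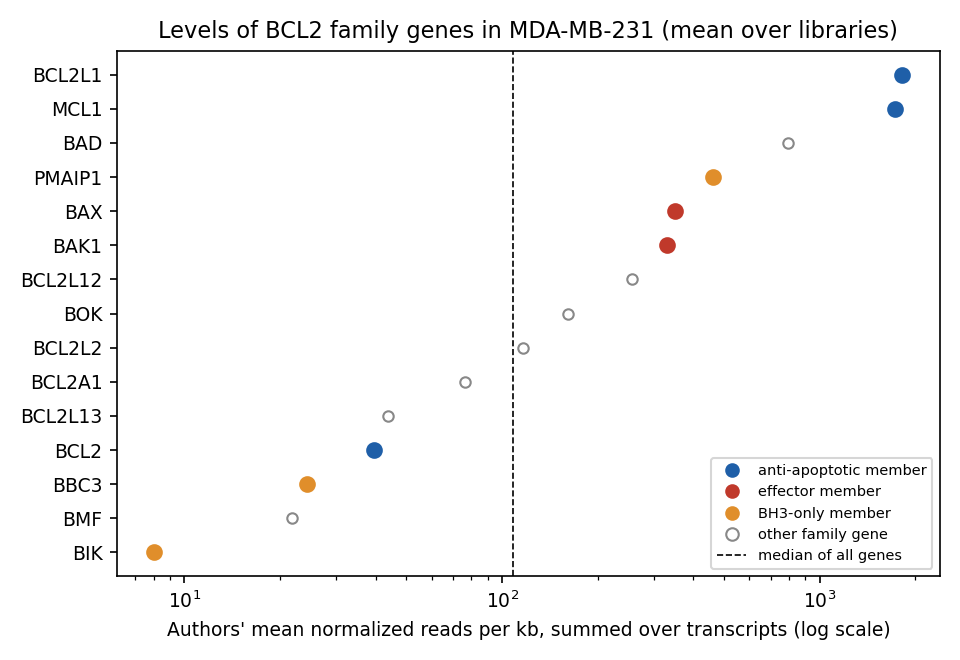
Level of each listed BCL2 family gene as the authors' mean normalized reads per kb, summed over transcripts (x axis, log scale), with filled points for the members and open points for other family genes. There are no error bars because only a mean over libraries is given; BCL2L1 and MCL1 lie at 1819 and 1719, and BCL2, BBC3 and BIK lie below the dashed line at 108, the median of all genes.

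Against all 15113 genes of the table, whose median level was 108 reads per kb, 5 members were above the median and 3 were below it. BCL2L1 and MCL1, at percentiles 96.5 and 96.3, were the members above percentile 90 of all genes, which stood at 797 reads per kb. PMAIP1 was at percentile 82.1, BAX at 77.1 and BAK1 at 76.1. BCL2, the founding member of the family, was at percentile 30.9, BBC3 at 23.2 and BIK at 9.10. In reads not divided by length, BCL2 was at percentile 48.4, BBC3 at 21.0 and BIK at 0.609. These percentiles are relative to the genes in the table, where the lowest mean normalized read count of a transcript was 7.34.

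**Figure D2:**
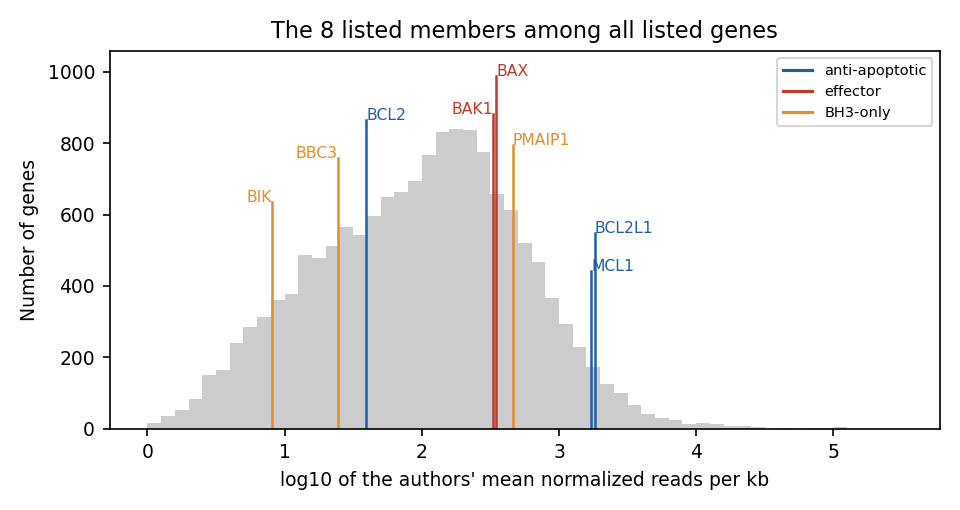
Number of genes (y axis) by log10 of the authors' mean normalized reads per kb (x axis) for all 15113 listed genes in grey, with a coloured line at each of the 8 listed members; line heights carry no value. BCL2L1 and MCL1 sit in the right tail at percentiles 96.5 and 96.3, and BIK in the left tail at 9.10.

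Among the anti-apoptotic members, BCL2L1 and MCL1 made up nearly all of the summed level. BCL2L1, which encodes Bcl-x, held 50.8% of the 3577 reads per kb, MCL1, which encodes a short-lived survival protein, held 48.1%, and BCL2 held 1.10%. The BCL2L1 level was 46.0 times and the MCL1 level 43.5 times that of BCL2. In reads not divided by length the order of the leading pair was the other way round. MCL1 had 6099 mean normalized reads and BCL2L1 4439, a ratio of 1.37, because the MCL1 transcripts are longer. BCL2 had 259.5 reads, most of them on a transcript of 7461 bases.

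The pro-apoptotic effectors had levels close to each other. BAX had 453 mean normalized reads and BAK1 709, but per kilobase BAX was at 349.7 and BAK1 at 331. This order turned with protein-coding transcripts only, where BAX was at 270.4, and with a minimum mean count of 50, where it was at 309, each against 331 for BAK1. It also turned with the leading transcript alone, at 270.4 for BAX and 308 for BAK1. Their summed level of 681 reads per kb was 1.38 times that of the listed BH3-only members. Both effectors were therefore present at a level above that of the median gene, with neither far ahead of the other on the scale per length. The 192-codon Bax alpha transcript had no row, and whether reads from it count in the BAX level is not known.

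Among the listed BH3-only members, PMAIP1 stood out. PMAIP1, which encodes Noxa, a protein best known for binding MCL1, had 818 mean normalized reads and held 93.4% of the summed BH3-only level of 494 reads per kb. BBC3, which encodes Puma, a target of p53, had 40.7 reads over 3 transcripts, and BIK, which acts at the endoplasmic reticulum, had 7.67 reads on 1 transcript. The PMAIP1 level was 19.0 times that of BBC3 and 57.3 times that of BIK. The value of BIK is close to 7.34, the lowest of any listed transcript, as is that of 1 of the 3 BBC3 transcripts, at 7.79.

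The summed level of the 3 anti-apoptotic members was 3577 reads per kb and that of the 5 listed pro-apoptotic members 1175. The ratio was 3.05, or 1.61 on the log2 scale. With medians in place of sums the ratio was 5.19, from 1719 for the anti-apoptotic and 331 for the listed pro-apoptotic members. BID and BCL2L11 contribute nothing to the pro-apoptotic sum because they had no row. Genes are not replicates, so no test was made, and the ratio concerns mRNA only. The anti-apoptotic sum includes the short products Bcl-xS, Mcl-1S and Mcl-1ES described below. Mcl-1ES, at 288 reads per kb, was not moved in any alternative. With Bcl-xS and Mcl-1S counted on the pro-apoptotic side, the log2 ratio was 0.45. With reads not divided by length it was 2.41. It was 0.58 without BCL2L1, 0.66 without MCL1 and 2.33 without PMAIP1.

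The 24 transcripts of the members were 19 protein-coding, 4 with a retained intron and 1 processed transcript by the annotation in the table. All 24 had an entry of the same identifier in GENCODE release 44, from which coding lengths were read. In the 7 members with more than 1 transcript, the transcript with the most reads held between 37.8% of the gene's level in BCL2L1 and 93.1% in BAK1, with a median of 72.5%. The median over the 10289 genes with more than 1 transcript was 58.7%. BCL2L1 was the member least dominated by a single transcript.

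BCL2L1 had 4 listed transcripts, and its level was divided between long and short product. The long Bcl-xL coding sequence of 233 codons was carried by ENST00000307677.4 with 1795 mean normalized reads and by ENST00000376062.6 with 893. The short Bcl-xS coding sequence of 170 codons was carried by ENST00000376055.8 with 1641 reads and by ENST00000422920.1 with 111. Both leading transcripts, 1 of each kind, had nearly the same level per length, 688 reads per kb for the long and 689 for the short. Summed over both listed transcripts of each product, the level was 1034 reads per kb for Bcl-xL and 785 for Bcl-xS. The short product thus held 43.1% of the listed level. In reads not divided by length its share was 39.5%. GENCODE release 44 holds 10 transcripts with the 233-codon sequence, of which 2 had rows. It holds 2 with the 170-codon sequence, and both had rows. Any level on the unlisted Bcl-xL transcripts is therefore not counted in either share. These shares rest on how eXpress divided the reads that long and short transcripts have in common, and the table does not show how many reads told them apart. The gene ABALON overlaps 1735 exon bases of these transcripts on the opposite strand and has no row of its own; its part in the BCL2L1 values was not tested.

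MCL1 was read mainly as its full-length product. The 350-codon transcript ENST00000369026.2 had 4829 mean normalized reads and held 71.4% of the MCL1 level. A 197-codon product, known as Mcl-1ES, lacks 459 coding bases of the first exon (chr1:150578964-150579422), and its transcript ENST00000620947.4 had 1046 reads and 16.8% of the level. The product known as Mcl-1S, which skips the second exon and is known to promote apoptosis, lacks the 248 coding bases at chr1:150578244-150578491 and is given 271 codons. Its transcript ENST00000307940.3 had 55.5 reads and 2.91% of the level. The remaining 8.89% lay on a processed transcript. The listed transcripts of the full-length products of MCL1 and BCL2L1 stood at 1228 and 1034 reads per kb, a ratio of 1.19. With these listed long products alone, MCL1 was the higher of the pair.

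**Figure D3:**
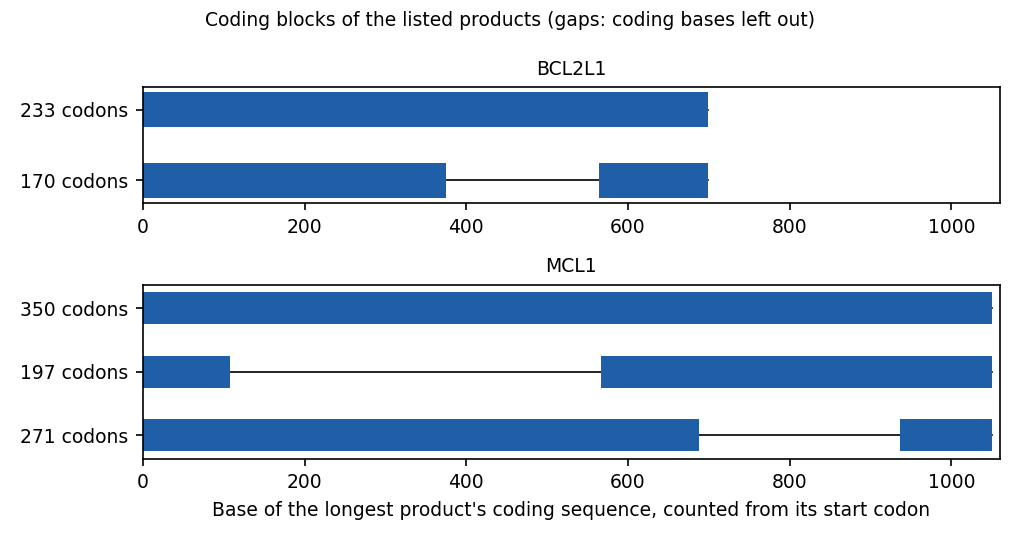
Coding blocks of the listed BCL2L1 and MCL1 products along the coding sequence of the longest product (x axis, bases from the start codon), with lines where coding bases are left out; the 11 coding bases of the 271-codon MCL1 product that the longest product does not have are not drawn. The 170-codon BCL2L1 product lacks 189 bases, and the shorter MCL1 products lack 459 and 248.

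BCL2 was listed with 3 coding transcripts. The 239-codon coding sequence, known as Bcl-2 alpha, was carried by ENST00000398117.1 with 214 mean normalized reads and ENST00000333681.4 with 15.5, which together held 84.7% of the BCL2 level. The 205-codon Bcl-2 beta transcript ENST00000589955.2 had 30.3 reads. The leading transcript alone held 72.5%, so most of the low BCL2 level lay on 1 transcript.

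The effectors differed in their listed transcripts. BAX had a single coding transcript, ENST00000293288.12, with 367 mean normalized reads, and 3 retained-intron transcripts with 52.3, 16.9 and 16.2 reads, which held 22.7% of the BAX level. The listed coding sequence has 218 codons, the length of the product known as Bax beta. A transcript with the 192 codons of the usual Bax alpha exists in release 44 and had no row, so no value is given for Bax alpha. Whether reads from it were assigned to the listed BAX transcripts is not known. BAK1 had a 211-codon transcript with 658 reads, the length of full Bak, and a 153-codon transcript with 50.9 reads.

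The 54-codon Noxa transcript of PMAIP1, ENST00000316660.6, had 686 mean normalized reads and held 76.3% of the level. A 136-codon PMAIP1 transcript had 121 reads and a retained-intron transcript 10.6. BBC3 was divided over coding sequences of 131, 193 and 261 codons with 20.5, 12.4 and 7.79 reads, and the 193-codon length is that of Puma alpha. BIK had 1 transcript of 160 codons.

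**Figure D4:**
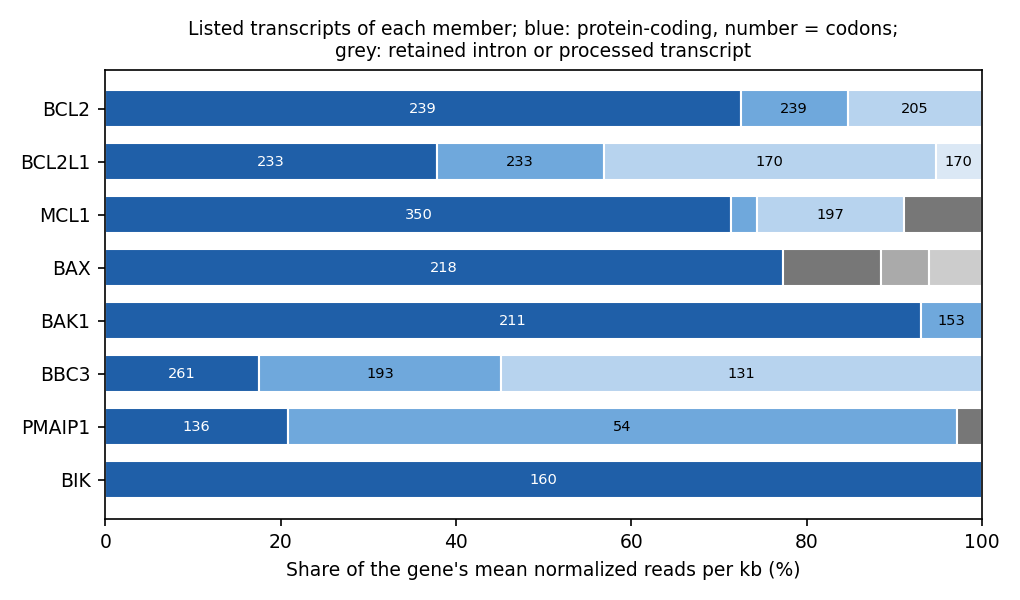
Share of each member's level (x axis, percent of the authors' mean normalized reads per kb) held by each listed transcript, in blue with its number of codons where protein-coding and in grey where a retained intron or processed transcript. BCL2L1 is divided between 233 and 170 codons with 43.1% on the latter, while BAK1 has 93.1% on 1 transcript.

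HuR, the protein that KH-3 is described to inhibit, binds AU-rich sequence, often in 3′UTRs, and AUUUA is the classical element of such sequence. The AUUUA motif was therefore counted on the sense strand, overlaps included, in the 3′UTR of each member's leading coding transcript. Of the 8 members, 5 had at least 1 AUUUA, and 72.8% of the 11608 genes with a 3′UTR in the reference did. BCL2 had 13, MCL1 10, PMAIP1 5, BCL2L1 3 and BIK 1, whereas BAX, BAK1 and BBC3 had 0. All 3 anti-apoptotic members held the motif, as did 2 of the 5 listed pro-apoptotic ones, with neither effector among them. With 72.8% of all genes holding it, counts this small cannot set the sides apart. The BAX 3′UTR is that of the listed 218-codon transcript, and that of Bax alpha was not searched. The members' 3′UTRs also differed in length. It was 5279 bases in BCL2, 2817 in MCL1, 1552 in PMAIP1 and 1491 in BCL2L1. In the others it was 1251 in BAK1, 978 in BBC3, 701 in BAX and 407 in BIK. Per kilobase of 3′UTR, MCL1 had 3.55, PMAIP1 3.22, BCL2 2.46, BIK 2.46 and BCL2L1 2.01, and the median gene had 1.73. MCL1 was at percentile 78.6 of all genes on this scale, PMAIP1 at 74.4, BCL2 at 62.8, BIK at 62.7 and BCL2L1 at 54.7. The longer motif UAUUUAU was found 3 times in MCL1, 3 times in PMAIP1 and once each in BCL2 and BCL2L1, and 35.1% of all genes had it. The 3′UTR of PMAIP1 was also the richest in A and U of the 8, at 68.6%, while that of BBC3, at 36.9%, was at percentile 3.05 of all genes. The content was 61.2% in MCL1, 59.4% in BCL2 and 49.6% in BIK. BCL2L1, at 43.4%, was close to the effectors BAX, at 43.5%, and BAK1, at 42.8%. A match of these letters is a description and not a binding site.

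The 25-base windows with the most AUUUA are given for BCL2, MCL1 and PMAIP1, the members with 5 or more, in the sense of the mRNA with T for U and AUUUA in capitals, from hg38. They lie at chr18:63128355-63128379 on the minus strand for BCL2, at chr1:150576219-150576243 on the minus strand for MCL1 and at chr18:59903969-59903993 on the plus strand for PMAIP1.
BCL2: aaaaagATTTATTTATTTAagacag
MCL1: ctaATTTAactggtgaaATTTAaag
PMAIP1: ttttATTTAttttgcctATTTAtaa

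The BCL2 window holds 3 overlapping copies of the motif, and those of MCL1 and PMAIP1 hold 2 separate copies each.

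**Figure D5:**
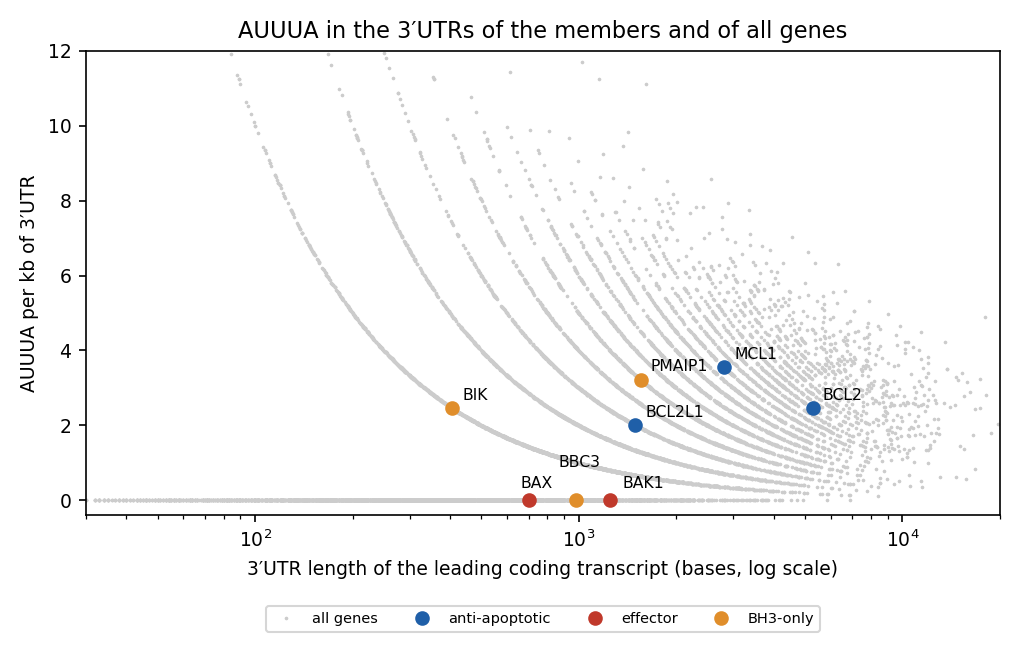
AUUUA per kb of 3′UTR (y axis) against 3′UTR length of the leading coding transcript (x axis, bases, log scale) for all genes in grey and the 8 members in colour; 155 genes lie outside the drawn range. BAX, BAK1 and BBC3 lie at 0, and MCL1 is the highest member at 3.55.

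Of 11 further BCL2 family genes, 7 had rows. BAD, a BH3-only gene controlled by survival signalling, had 792 reads per kb at percentile 89.9, above PMAIP1 and both effectors. BCL2L12 had 257 reads per kb, of which 77.8% lay on a transcript annotated for nonsense-mediated decay. BOK, an effector-like gene, had 161 and BCL2L2, the anti-apoptotic Bcl-w, 116. BCL2A1, an anti-apoptotic target of NF-kB, had 76.2, BCL2L13 43.9 and the BH3-only BMF 21.8. None of the listed further genes reached the level of BCL2L1 or MCL1. All 5 other cell death genes looked for had rows. CYCS, which encodes cytochrome c, had 4249 reads per kb, DIABLO 199.5, APAF1 105, HTRA2 79.0 and the initiator caspase CASP9 60.0.

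The cells were checked against their label with markers. All 4 mesenchymal markers had rows, with CD44 at 427 and VIM, AXL and CAV1 between 2599 and 10135 reads per kb. Of 6 luminal or epithelial markers, ESR1, PGR and CDH1 had no row, ERBB2 and EPCAM were at 44.3 and 43.3 reads per kb, and KRT18 was high at 5378.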

How the data were processed

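RNA was extracted with Trizol and libraries were made with the TruSeq Standard mRNA kit. The authors mapped reads to GENCODE release 24 transcripts using STAR, estimated reads per transcript with eXpress and compared groups with DESeq2. Versions are not given in the sources used here. The deposited signal is a mean normalized read count per transcript, averaged over libraries by the authors. The table's log2 fold changes, p-values and q-values hold the authors' own comparison and were not used. There are 0 columns of values per library, so depth, replicate error and any test of KH-3 against DMSO are lacking.

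Reads were divided by transcript length in the table (per 1000 bases) and summed per gene symbol. The leading transcript is that with the most reads. Coding blocks, 3′UTRs and positions come from GENCODE release 44 and hg38, where 42550 of 43596 transcripts were found by identifier without version. Of the 8 leading coding transcripts, 3 had equal length in both releases and the largest difference was 49 bases. Some other member transcripts differed far more. ENST00000333681 of BCL2 had 3209 bases in the table and 6881 in release 44. The lengths were 1157 and 2227 for ENST00000422920 of BCL2L1, and 1099 and 4550 for ENST00000464132 of MCL1. Named were all members, all listed genes of the other family and apoptosome lists, and the markers. The members and lists were chosen with earlier results of these data known. A planned search for the BH3 motif in proteins was not run. Alternatives covered transcript types, the leading transcript alone, a minimum mean count of 50, reads without length, each gene left out, and the 3′UTR motif and transcript. Those on the short products Bcl-xS and Mcl-1S were added after the data were seen. The computation of gene levels, leading transcript shares and percentiles was tested on simulated data, and the other computations were not. Python 3.11.15, numpy 2.4.6, pandas 2.3.3 and matplotlib 3.10.9 were used.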

Additional observations from a re-analysis of the deposited data

How the results depend on the processing

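Within the 8 listed members, the anti-apoptotic sum exceeded the pro-apoptotic sum under each alternative tried. The ratio of the sums, 3.05 or 1.61 on the log2 scale, moved by more than 1.5 times in 5 of these alternatives. No alternative added family genes outside the members, such as BAD, to either sum. Its log2 was 2.41 with reads not divided by transcript length, 0.58 with BCL2L1 left out, 0.66 with MCL1 left out and 2.33 with PMAIP1 left out. It was 0.45 with Bcl-xS and Mcl-1S counted on the pro-apoptotic side. Moving the MCL1 product Mcl-1ES as well was not tried and would lower the ratio further. The number of members with rows (6 at a minimum mean count of 50, which removes BBC3 and BIK, against 8), the number above the median gene, the leading transcript share, the number of members with AUUUA and the BCL2L1 short product share stayed within 1.5 times. Of the 22 levels of single members recomputed, 2 changed by more than that, namely those of BCL2L1 and BBC3 when the leading transcript alone was taken, which also placed MCL1 (1228 reads per kb) above BCL2L1 (688). No paired analysis was possible because the table holds no values per library, and for the same reason no library could be left out. Depth is unknown, and no transcript with a mean count under 7.34 has a row.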
